A study of Mus musculus with 6 samples.

Results

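The genes described here are the SR and hnRNP splicing regulators, taken as every gene whose symbol in the annotation of the array begins with Srsf or Hnrnp, together with Tra2a, Tra2b, Srrm1 and Srrm2. This gave 34 genes among the 19057 genes listed for the array, with 90 probes. Of these, 31 genes and 68 probes passed the detection filter (a detection p-value under 0.05 on 3 or more of the 6 arrays) and were tested. RNA came from the whole thymus of 3 wild type C57BL/6 mice and 3 miR-181d Tg-38 mice of the same strain, and each mouse was hybridised to 1 Illumina MouseWG-6 v2 array. The labels name the cell type as thymocyte, but the organ was homogenised whole, so stroma, blood and other leukocytes contributed RNA. Tg-38 is 1 transgenic line, in which a genomic fragment with pri-miR-181d is driven by the VA-hCD2 cassette, a construct used for expression in thymocytes and T cells. The mice carried no other allele or treatment that the labels mention. Expression of the 2 groups was compared to learn how the transgene affected thymic transcripts, and miR-181d itself was not measured by these arrays.

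SR proteins carry RNA recognition motifs and a domain rich in arginine and serine, and they promote the use of exons by binding exonic enhancers. hnRNP proteins coat nascent RNA and often silence splice sites, and both families also act in RNA export, stability and translation. Exon choice in Ptprc, the gene of CD45, depends on such factors during T cell maturation and activation, with hnRNPLL and hnRNPL silencing its variable exons. Many SR and hnRNP genes control their own level through cassette exons that send the transcript to nonsense-mediated decay, so that different transcripts of 1 gene can behave differently. The transgene encodes a microRNA that reads targets through its seed, bases 2 to 8, shown in capitals below because this is the microRNA that the transgene adds. The RefSeq entry lies at chr8:84178759-84178781 on the minus strand of GRCm38.p6, and the 4 mature names of the miR-181 family share the same seed.
miR-181d-5p: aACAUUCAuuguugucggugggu

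None of the 68 tested SR and hnRNP probes passed the adjusted threshold of 0.05, and no probe was more than 1.5-fold higher or lower in Tg-38 mice than in wild type mice. The count over 1.5-fold was 1 without wild type replicate 3 and 3 when arrays were scaled by their medians, which shifted all probes downward. Over all 18352 probes tested, 202 passed (1.10%) and 550 changed over 1.5-fold (3.00%). The median change of the 68 probes was -0.02 on the log2 scale, against -0.01 for all probes, with the middle 50% of probes between -0.16 and 0.05. The lowest value was -0.45, for 1 probe of Hnrnpll, and the highest was 0.37, for 1 probe of Srrm2. In absolute size the median change was 0.10 for these probes and 0.14 for all probes. The regulators thus lay near 0 as a group, and 27 probes were above 0 and 41 below, against 8941 and 9411 of all probes. By the brightest probe of each gene, 15 were above 0 and 16 below.

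**Figure D1:**
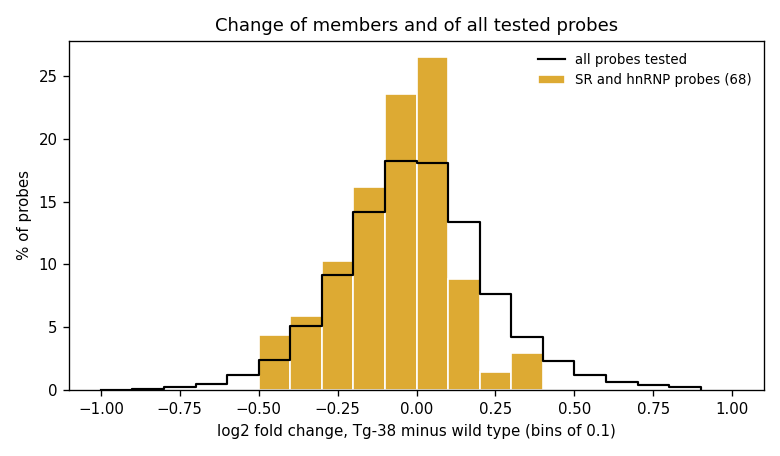
Log2 fold change of Tg-38 minus wild type in bins of 0.1 (x axis) against the percent of probes (y axis), for the 68 SR and hnRNP probes (bars) and all 18352 probes tested (line). The SR and hnRNP probes run from -0.45 to 0.37, while the line extends beyond both ends.

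At an unadjusted p under 0.05, 1 of the 68 probes was higher in Tg-38 mice and 3 were lower, against 8.55% and 8.48% of all probes. The higher probe belonged to Srrm2, and the lower ones to Srsf11 (2 probes) and Hnrnpul2. The 3 lower probes depended on the arrays used, since 0 were counted without wild type replicate 1, 2 without Tg-38 replicate 1 or 3, 5 without Tg-38 replicate 2, and 8 without wild type replicate 2. The count of higher probes was 2 without wild type replicate 1 or Tg-38 replicate 3 and 1 without any other array. Adjusted calls over all probes moved as well, from 202 to 26 without wild type replicate 1 and 315 without wild type replicate 2. Unadjusted shares of all probes in these runs are not given, so the shifts are not read as a trait of the members. The groups did not overlap, with every Tg-38 mouse above every wild type mouse, for 1 probe (11.4% of all probes), and in the opposite direction for 4 probes (11.2%), which were those of Srsf11, Hnrnpul2 and 1 probe of Hnrnpll. A change over 1.2-fold in either direction was found for 11 of 68 probes (16.2%), of which 2 were higher and 9 lower, against 24.5% of all probes.

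The precision of these values sets what can be said of a gene that did not pass. The 95% confidence interval from limma lay within 1.5-fold in both directions for 50 of 68 probes (73.5%), against 72.4% of all probes, and within 1.2-fold for 4 probes, 1 each of Hnrnpab, Hnrnpc, Srsf3 and Srsf6. The count within 1.5-fold was 39 under median scaling, 65 without background correction and 44 to 49 with 1 array left out. The median interval extended 0.31 on either side of the change, which is 1.24-fold. For 18 genes every tested probe had an interval within 1.5-fold, namely Srsf1, Srsf3, Srsf4, Srsf5, Srsf6, Srsf9, Tra2a, Tra2b, Srrm1, Hnrnpa0, Hnrnpa1, Hnrnpab, Hnrnpc, Hnrnpf, Hnrnph3, Hnrnpl, Hnrnpm and Hnrnpr. The other 13 genes had at least 1 interval that reached 1.5-fold, downward for 13 probes and upward for 6, and Hnrnpd reached it both ways. Of these 18 intervals, 9 came from probes with a group mean under 7 on the log2 scale, close to background. Folds of dim probes, such as ILMN_3024068 of Hnrnpa1, are understated on the offset scale used. An interval within 1.5-fold at such a probe therefore does not bound the true fold.

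**Figure D2:**
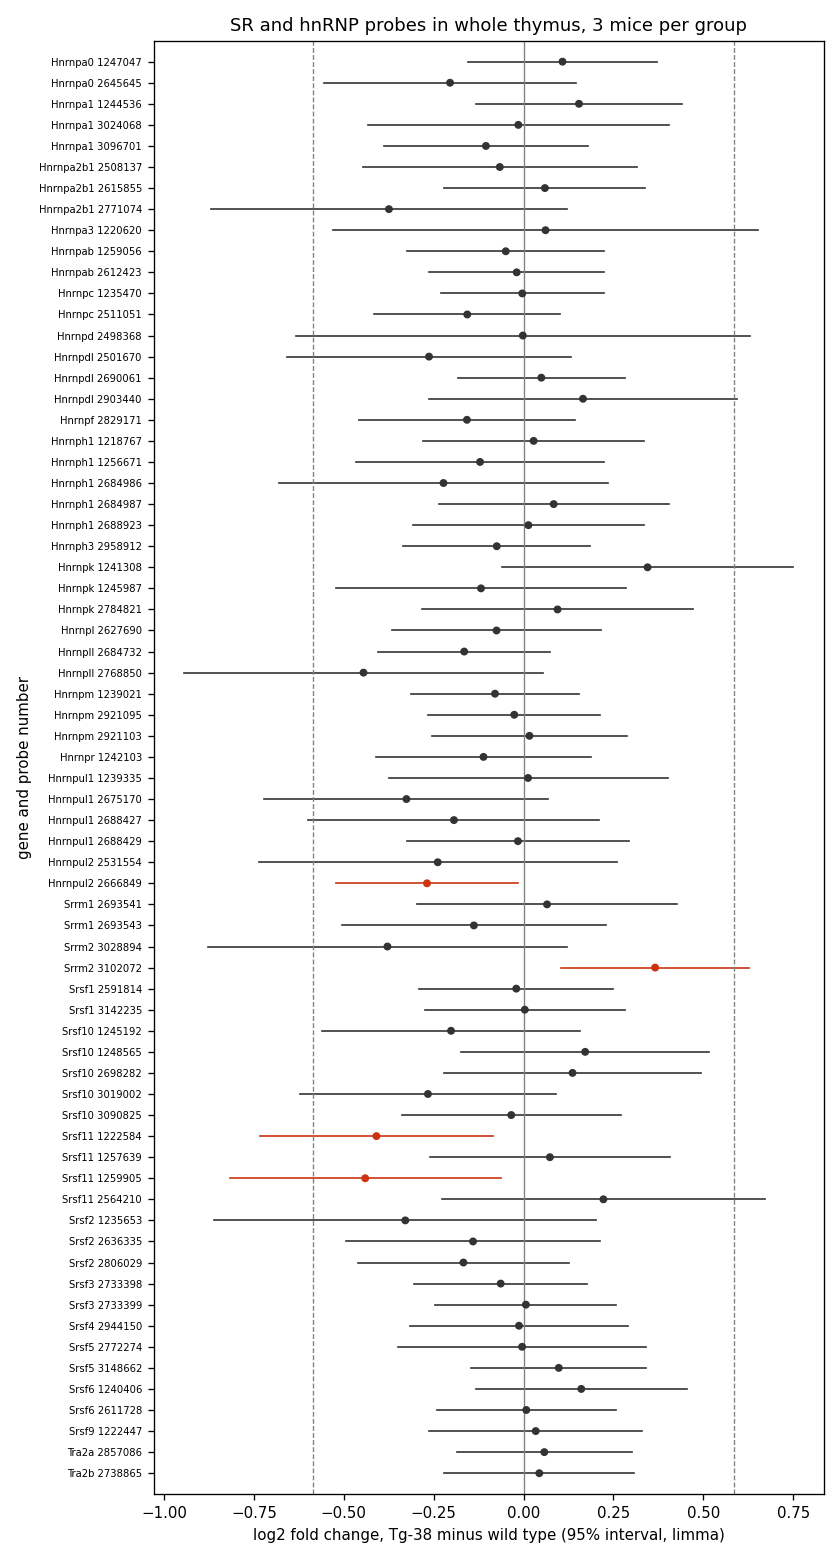
Log2 fold change of Tg-38 minus wild type (x axis, points) with its 95% interval from limma (bars) for the 68 tested SR and hnRNP probes (y axis, gene and probe number), 3 mice per group; dashed lines mark 1.5-fold and red marks an unadjusted p under 0.05. The 4 red probes belong to Hnrnpul2, Srrm2 and Srsf11, and no point lies beyond a dashed line.

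Among the SR proteins, the classical members had values close to each other in the 2 groups. Srsf1, first purified as a factor for splice site choice, had log2 signals of 13.33, 13.15 and 12.99 in the wild type mice and 13.18, 13.12 and 13.10 in the Tg-38 mice at its brighter probe. The change was -0.02 (95% interval -0.29 to 0.25), and the other probe gave 0.00 (-0.27 to 0.28). The groups overlapped fully at both probes. Srsf3, the smallest SR protein, gave -0.06 and 0.01 at its probes, Srsf4 gave -0.01, Srsf5 -0.00 and 0.10, Srsf6 0.01 and 0.16, and Srsf9 0.03. For Srsf2, which also acts in transcription elongation, the 3 probes gave -0.14, -0.17 and -0.33, and the interval of the last ran from -0.86 to 0.20. All 3 Srsf2 probes were thus below 0 without passing any threshold. Over the 22 tested Srsf probes of 9 genes the median change was -0.01, with 10 above 0 and 12 below.

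The gene with most pairs of differing probes was Srsf11, an SR-related protein that binds the large U2AF subunit and lies at chr3:158010915-158036667 (GRCm38.p6). Its 4 tested probes fell into those annotated to a RefSeq mRNA and those annotated to cDNA clone records. The first RefSeq probe (ILMN_1222584) had log2 signals of 10.43, 9.93 and 10.22 in wild type mice and 9.84, 9.84 and 9.67 in Tg-38 mice. All 3 Tg-38 mice were below all 3 wild type mice, and the change was -0.41 (SE 0.14, 1.33-fold lower, adjusted p = 0.202). The second RefSeq probe (ILMN_1259905) had 10.61, 9.98 and 10.04 in wild type and 9.78, 9.80 and 9.72 in Tg-38 mice. Its groups did not overlap either, with a change of -0.44 (SE 0.17, 1.36-fold lower, adjusted p = 0.228). In this probe wild type replicate 1 lay far above the other two. Without that array the changes were -0.29 (adjusted p = 0.447) and -0.25 (adjusted p = 0.439), and without Tg-38 replicate 3 they were -0.35 (adjusted p = 0.433) and -0.42 (adjusted p = 0.435). In both cases neither probe kept an unadjusted p under 0.05, and ILMN_1259905 also lost it without Tg-38 replicate 1.

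The clone probes of Srsf11 had changes above 0, but these turned below 0 without wild type replicate 3 (-0.071 and -0.0045), and for ILMN_1257639 also under median scaling (-0.12). ILMN_1257639 had 9.44, 9.56 and 9.07 in wild type mice and 9.30, 9.45 and 9.53 in Tg-38 mice, a change of 0.07 (95% interval -0.26 to 0.41, adjusted p = 0.842). ILMN_2564210, a dim probe, had 5.77, 5.99 and 5.20 against 5.98, 5.97 and 5.67, a change of 0.22 (-0.23 to 0.67, adjusted p = 0.618). The groups overlapped at both. When the change of 1 probe was set against that of another of the same gene, 3 Srsf11 pairs, each of a RefSeq and a clone probe, differed at an unadjusted p under 0.05. The widest difference was -0.66 between ILMN_1259905 and ILMN_2564210 (SE 0.23, adjusted p = 0.540 over all pairs), and the others were -0.63 (adjusted p = 0.568) and 0.51 (adjusted p = 0.571). The fourth such pair differed by -0.48 (adjusted p = 0.632). No pair passed the adjusted threshold. RefSeq lists 2 starts for Srsf11, and the windows from 250 bases before to 50 after each are given because the gene has more than 1 transcript. They lie on the minus strand at chr3:158031699-158031998 and chr3:158036557-158036856, and neither CACGTG, read by Myc and related factors, nor CCAAT, read by NF-Y, is found in them on either strand.
Srsf11 window 1: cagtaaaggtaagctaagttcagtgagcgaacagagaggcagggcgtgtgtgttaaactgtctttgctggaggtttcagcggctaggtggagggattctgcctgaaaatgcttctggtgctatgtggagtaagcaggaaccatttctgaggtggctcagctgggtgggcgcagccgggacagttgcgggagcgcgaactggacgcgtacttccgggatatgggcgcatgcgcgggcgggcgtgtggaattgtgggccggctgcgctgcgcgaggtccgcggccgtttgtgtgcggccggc
Srsf11 window 2: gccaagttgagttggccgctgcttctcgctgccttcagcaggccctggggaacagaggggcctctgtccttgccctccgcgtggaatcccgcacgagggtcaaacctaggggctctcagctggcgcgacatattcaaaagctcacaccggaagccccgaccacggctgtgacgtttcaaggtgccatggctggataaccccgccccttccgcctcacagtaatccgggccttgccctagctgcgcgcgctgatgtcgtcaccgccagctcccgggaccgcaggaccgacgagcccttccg

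Srsf10, a splicing repressor when it is dephosphorylated in heat shock and mitosis, lies at chr4:135855752-135869908 and had 5 tested probes. The 2 probes of 1 RefSeq transcript gave -0.27 (ILMN_3019002, SE 0.16, adjusted p = 0.436) and -0.03 (ILMN_3090825, SE 0.13, adjusted p = 0.926). The 2 probes of another RefSeq transcript gave 0.17 (ILMN_1248565, SE 0.15, adjusted p = 0.615) and 0.14 (ILMN_2698282, SE 0.16, adjusted p = 0.709). The 2 records differed in sign, but with 1 array left out ILMN_3090825 ran from -0.106 to 0.084 and ILMN_2698282 from -0.0051 to 0.302, so that this split did not hold. A clone probe (ILMN_1245192) gave -0.20 (SE 0.16, adjusted p = 0.567). Log2 signals at ILMN_3019002 were 8.89, 8.41 and 8.81 in wild type mice and 8.66, 8.34 and 8.32 in Tg-38 mice. At ILMN_1248565 they were 6.84, 6.90 and 6.96 against 7.40, 6.82 and 6.99, where only Tg-38 replicate 1 stood above the rest. At ILMN_2698282 they were 8.08, 8.21 and 8.18 against 8.34, 7.96 and 8.58. The groups overlapped at each of these 3 probes. The changes of ILMN_1248565 and ILMN_3019002 differed by 0.44 (SE 0.18, adjusted p = 0.575). ILMN_3090825 had 6.39, 6.48 and 6.24 in wild type and 6.43, 6.48 and 6.10 in Tg-38 mice, and ILMN_1245192 had 5.39, 5.16 and 5.05 against 4.80, 4.89 and 5.31, again with overlapping groups.

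Tra2a and Tra2b, sequence-specific activators related to SR proteins, had 1 tested probe each. Tra2a had log2 signals of 12.07, 12.21 and 12.02 in wild type mice and 12.14, 12.12 and 12.21 in Tg-38 mice. Tra2b had 10.87, 10.71 and 10.90 against 10.84, 11.01 and 10.76. The changes were 0.06 (95% interval -0.19 to 0.30) and 0.04 (-0.22 to 0.31), and the groups overlapped. Srrm1, a coactivator that bridges factors on exonic enhancers, gave 0.07 (-0.30 to 0.43) and -0.14 (-0.51 to 0.23) at its probes.

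Srrm2, the large SR-repeat protein of nuclear speckles at chr17:23790527-23824741, held the single higher probe. At ILMN_3102072 the wild type mice had 10.06, 10.04 and 10.09 and the Tg-38 mice 10.34, 10.34 and 10.61. The groups did not overlap, and the change was 0.37 (SE 0.12, 1.29-fold higher, adjusted p = 0.167). Its unadjusted p stayed under 0.05 when any 1 array was left out. At the dim probe ILMN_3028894, annotated to the same RefSeq mRNA, the wild type mice had 6.10, 5.91 and 6.25 and the Tg-38 mice 5.90, 6.06 and 5.16. The change there was in the opposite direction, -0.38 (SE 0.22, adjusted p = 0.427), with overlapping groups, and only Tg-38 replicate 3 was low. Without that mouse the change of this probe was -0.11 and that of the bright probe was 0.28. The 2 probes differed in their change by 0.74 in size (SE 0.28, adjusted p = 0.551).

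The 40 tested hnRNP probes belonged to 18 genes and had a median change of -0.06, with 13 above 0 and 27 below. Several probes of the same gene enter this split, so it is not read as a direction of the genes. Hnrnpc, which binds uridine tracts of nascent RNA, was among the steadiest, with log2 signals of 13.98 to 14.03 in wild type mice and 13.97 to 14.05 in Tg-38 mice. Its change was -0.00 (95% interval -0.23 to 0.22) at this probe and -0.16 (-0.42 to 0.10) at the other. Hnrnpab gave -0.02 (-0.26 to 0.22) and -0.05, and the 3 probes of Hnrnpm -0.08, -0.03 and 0.02. Hnrnpl, the binder of CA repeats, gave -0.08 (-0.37 to 0.22). At none of these bright probes did the change exceed the spread between mice by the test.

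The A group of hnRNP proteins opposes SR proteins at many splice sites. Hnrnpa1 gave 0.15, -0.01 and -0.10 at its 3 probes and Hnrnpa0 gave 0.11 and -0.20. Hnrnpa2b1 gave 0.06 at its brightest probe, -0.07 at a dim one and -0.37 (95% interval -0.87 to 0.12) at the third. Hnrnpa3 had 1 tested probe near background with 0.06 (-0.53 to 0.65), too wide to place it. The signs were mixed within genes as well as between them. Processed copies of several hnRNP genes exist in the mouse genome, and how far their transcripts reach these probes was not tested.

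Hnrnpd, which binds AU-rich elements and directs mRNA decay, gave -0.00 with an interval of -0.63 to 0.63 from 1 dim probe. Its relative Hnrnpdl gave 0.05, 0.17 and -0.26. The binders of G tracts gave -0.16 for Hnrnpf, -0.07 for Hnrnph3, and values from -0.22 to 0.08 over 5 probes for Hnrnph1. Hnrnpr gave -0.11 and the 4 probes of Hnrnpul1 gave -0.33, -0.19, -0.02 and 0.01. No probe in this set had an unadjusted p under 0.05.

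Hnrnpk, a binder of C-rich RNA at chr13:58391132-58403343, had 3 tested probes. At the dim clone probe ILMN_1241308 the wild type mice had 5.42, 5.45 and 5.53 and the Tg-38 mice 5.79, 6.21 and 5.44. Only 2 of 3 Tg-38 mice exceeded the wild type values, with a change of 0.35 (SE 0.18, adjusted p = 0.371). At ILMN_1245987 the signals were 10.45, 10.28 and 10.72 against 10.61, 10.47 and 10.02, a change of -0.12 (SE 0.18, adjusted p = 0.785). At ILMN_2784821 they were 7.74, 7.42 and 7.54 against 7.94, 7.71 and 7.33, a change of 0.09 (SE 0.17, adjusted p = 0.817). The first pair of these probes differed in change by 0.46 (SE 0.18, adjusted p = 0.571).

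Hnrnpul2, a relative of the scaffold attachment factor Hnrnpu, lies at chr19:8819401-8834143. At ILMN_2666849 the wild type mice had 8.78, 8.63 and 8.81 and the Tg-38 mice 8.36, 8.55 and 8.51. The groups did not overlap, and the change was -0.27 (SE 0.11, adjusted p = 0.271). The unadjusted p was over 0.05 without replicate 1 or 3 of either group. The dim probe ILMN_2531554 had 6.68, 5.88 and 6.60 against 5.88, 6.17 and 6.39, with overlapping groups and a change of -0.24 (SE 0.22, adjusted p = 0.628). Both probes of this gene were below 0.

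Hnrnpll, the regulator of CD45 exons in T cells at chr17:80029487-80062268, had the lowest single value. At ILMN_2768850 the wild type mice had 8.96, 8.47 and 8.05 and the Tg-38 mice 7.82, 8.06 and 8.27. The groups overlapped, and the change of -0.45 had an interval of -0.94 to 0.05 (adjusted p = 0.349). At the brighter ILMN_2684732 they had 10.73, 10.65 and 10.82 against 10.61, 10.59 and 10.50, which did not overlap, with a change of -0.16 (-0.40 to 0.07, adjusted p = 0.473). Both Hnrnpll probes lay below 0, and neither passed an unadjusted p of 0.05.

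**Figure D3:**
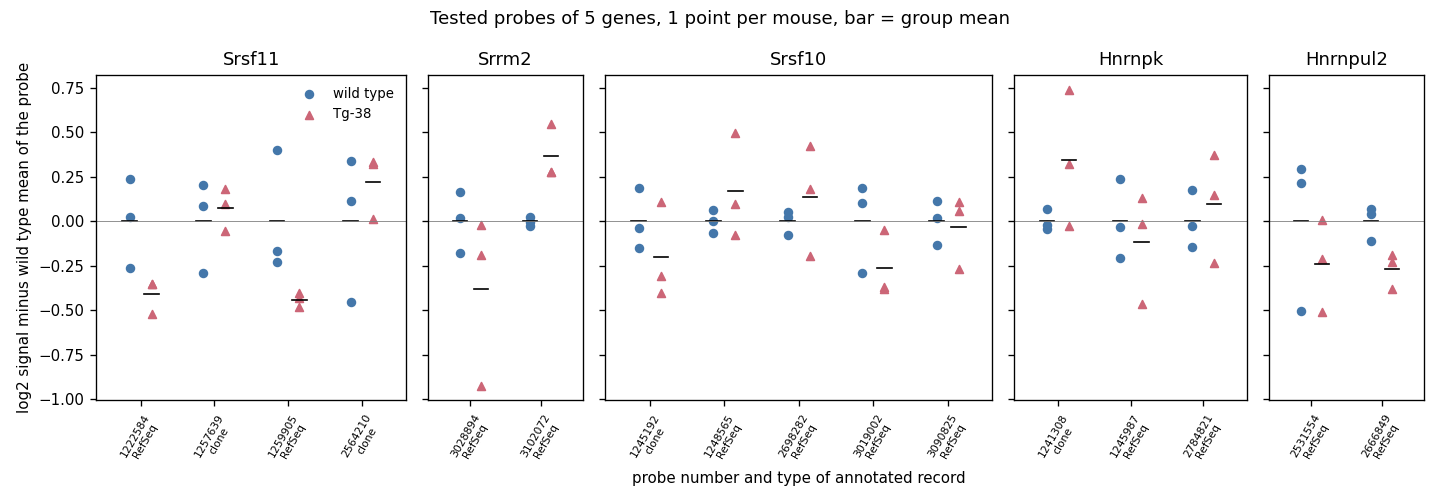
Log2 signal of each mouse minus the wild type mean of the probe (y axis) for the tested probes of Srsf11, Srrm2, Srsf10, Hnrnpk and Hnrnpul2 (x axis, probe number and type of annotated record); circles are wild type, triangles Tg-38, 3 mice each, and bars are group means. Triangles lie below all circles at both RefSeq probes of Srsf11 and above them at the bright Srrm2 probe, while the groups overlap at the other probes of these 2 genes.

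Disagreement between probes was counted over all genes. The 21 member genes with 2 or more tested probes gave 61 pairs, and 10 member genes had 1 tested probe. No pair differed in its change at an adjusted p under 0.05 (0.0735% of 8163 pairs over all genes did), and 6 of 61 (9.84%) differed at an unadjusted p under 0.05, against 8.0% of all pairs. These 6 came from 4 genes, Srsf11, Srrm2, Hnrnpk and Srsf10. Leaving out wild type replicate 1 gave 0 such pairs, replicate 3 gave 1 and replicate 2 gave 12, and there were 4 without Tg-38 replicate 1 and 3 without Tg-38 replicate 2 or 3. Opposite signs were found in 35 of the 61 pairs, from 15 genes. The share over all genes was not counted, so this number is not read as a trait of the members. Opposite signs with both probes at an unadjusted p under 0.05 were found in 0 of the 61 member pairs and in 24 of the 8163 pairs over all genes. Probe positions along the transcripts were not examined, so the pairs describe probes and not known exons. Of the 68 tested probes, 61 were annotated to a RefSeq mRNA and 6 to a cDNA clone, and 4 of the 6 clone probes were above 0.

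The regulators were also viewed mouse by mouse. Taking the brightest tested probe of each of the 31 genes, 175 of 186 values lay within 0.3 of the mean over the arrays on the log2 scale, and the median change was -0.00. Wild type replicate 1 was the highest array for 20 of the 68 probes and wild type replicate 2 the lowest for 17. Wild type replicate 2 also stood apart from the rest on the second component over all probes (21.7% of the variance). The first component over all probes (39.4%) separated the groups, with 22.38, 8.485 and 20.15 in wild type and -18.15, -10.3 and -22.56 in Tg-38 mice. Over the members, the first component (31.7%) ran from 1.52 in wild type replicate 1 and 0.96 in replicate 3 to -0.64 in replicate 2, which lay among the Tg-38 values of -0.73, -0.12 and -0.997.

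**Figure D4:**
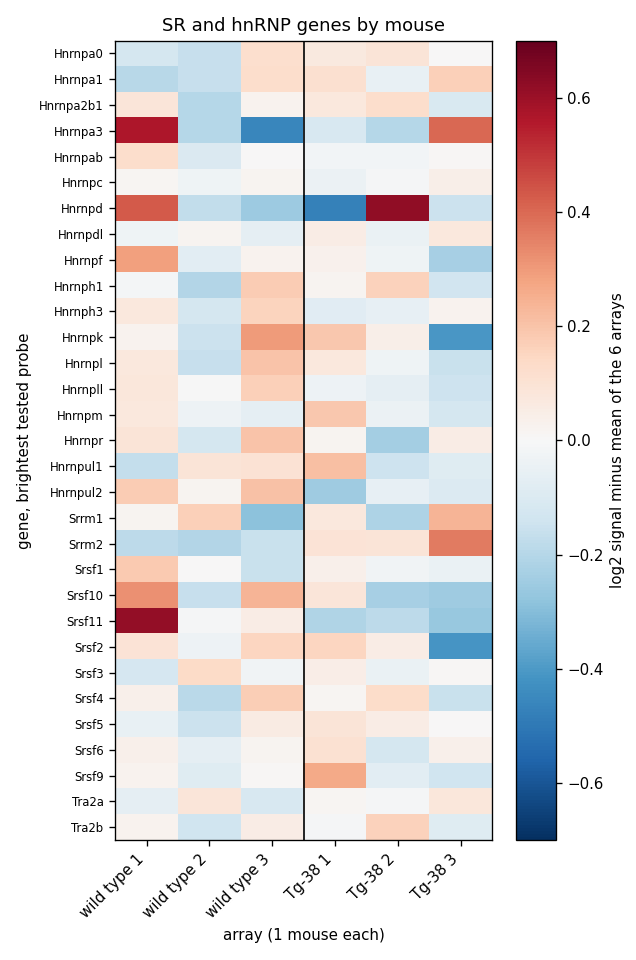
Brightest tested probe of each of the 31 genes (y axis) on the 6 arrays (x axis, 1 mouse each, line between wild type and Tg-38), coloured by the log2 signal minus the mean of the 6 arrays. Most cells are pale, the range is -0.47 to 0.62, and the darkest cells belong to Hnrnpa3, Hnrnpd and Srsf11.

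Members not tested were few. Hnrnph2 had 2 probes detected on 0 arrays. The only probe of Hnrnpu, which organises nuclear RNA and chromatin, was detected on 2 wild type arrays and no Tg-38 array, and the only probe of Srsf12 on 1 wild type array. Of all 22 untested probes, 18 were detected on 0 arrays, 3 on 1 and 1 on 2. Such probes are not well above background and no fold is given for them. Srsf7 was not analysed here.

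Other parts of the splicing machinery were read from 4 further lists of genes. Of 112 tested probes for 57 core spliceosome genes, 0 passed the adjusted threshold, and at an unadjusted p under 0.05 there was 1 higher and 5 lower, with a median change of -0.00. The smallest p-values were those of Snrpg, an Sm protein (-0.49, adjusted p = 0.164), Prpf8, the scaffold of the catalytic centre (-0.34, adjusted p = 0.180), and Prpf40b (0.40, adjusted p = 0.200). The other probes of these genes gave 0.17 for Snrpg, -0.18 for Prpf8 and -0.04 for Prpf40b. Of 105 probes for 46 other splicing regulators, 1 passed. This was Rbm39, an SR-related coactivator that works with U2AF, whose log2 signals were 7.98, 7.92 and 8.06 in wild type mice and 7.41, 7.47 and 7.47 in Tg-38 mice. The groups were far apart for their spread, and Rbm39 fell by 0.54 on the log2 scale (SE 0.10, adjusted p = 0.0496). The call was lost when any 1 array was left out (adjusted p = 0.0511 to 0.177, change -0.57 to -0.50), and the whole count of calls over all genes then ran from 15 to 36, or 315 without wild type replicate 2. Next in that list were Rbm10 (-0.50, adjusted p = 0.0760) and Matr3 (0.53, adjusted p = 0.0993), whose other probes gave values between -0.07 and -0.03. At an unadjusted p under 0.05, 3 probes of the list were higher and 8 lower, and its median was -0.09. With higher and lower probes added, this was 10.5% of the list, and 5.36% of the core spliceosome probes. Over all probes, 8.55% were higher and 8.48% lower. Both list shares lay below the sum of these shares of all probes.

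The kinases, phosphatases and import factors that act on SR proteins had 42 tested probes of 20 genes, with 0 adjusted calls, 1 probe above and 5 below wild type by the unadjusted p, and a median of -0.11. Top1, a topoisomerase that also phosphorylates SR proteins, gave -0.47 (adjusted p = 0.0878), Cdk12 -0.62 (adjusted p = 0.121) and Cdk13 -0.35 (adjusted p = 0.175), each at 1 probe. The other probes gave -0.23 and -0.11 for Top1, 0.07 and -0.06 for Cdk12, and -0.24 for Cdk13. The remaining lower probes were ILMN_3129762 and ILMN_3053158 of Dyrk1b, with changes of -0.46 (adjusted p = 0.181) and -0.29 (adjusted p = 0.241). The 1 higher probe was ILMN_1217753 of Srpk1, with a change of 0.31 (adjusted p = 0.286). Cdk12 and Cdk13 are cyclin K kinases that act on RNA polymerase II. The 19 probes of 12 genes of nonsense-mediated decay, the pathway that removes transcripts with poison exons, gave 0 adjusted calls, 0 higher and 3 lower, with a median of -0.08. The 3 lower probes were 1 of Upf1, the helicase of the pathway (-0.43, adjusted p = 0.113, with -0.20 and -0.10 at its other probes), and both of Rbm8a, a core exon junction protein (-0.28 and -0.26, adjusted p = 0.242 and 0.273). By the unadjusted p, with higher and lower probes added, 14.3% of the kinase, phosphatase and import probes and 15.8% of the decay probes were counted. Over all probes, 8.55% were higher and 8.48% lower. Both list shares lay below the sum of these shares of all probes. Of these 4 lists, 1 probe in all passed the adjusted threshold, beside 1.10% of all probes.

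Markers of several cell types differed between the groups on the same arrays. Of 25 probes for CD4+CD8+ thymocytes, 0 passed the adjusted threshold, 6 were lower at an unadjusted p under 0.05 and the median was -0.15, and their summed signal was 96260 to 99583 in wild type and 84398 to 89980 in Tg-38 mice. The markers Cd8b1, Cd4, Rag1 and Ptcra were detected, whereas Cd8a and Ccr9 had no tested probe. Mature thymocyte markers had 5 of 13 probes higher by the adjusted test (median 0.38), macrophage and dendritic markers 3 of 18 (0.41) and cytotoxic markers 4 of 8 (0.71), counts that were not repeated with arrays left out. Of 9 erythroid probes 0 passed the adjusted threshold, the unadjusted p was under 0.05 for 6 lower probes and 1 higher one, and 7 were below 0 (median -1.54), with summed signals of 37547 to 93344 in wild type and 17063 to 37133 in Tg-38 mice. B cell markers had 1 of 4 probes lower (-0.48). Thymic epithelial markers had 5 of 14 probes higher at an unadjusted p under 0.05 (0.26), without Foxn1 and Epcam, and cycling markers had 1 higher and 1 lower of 35 (0.01). Over all probes, 1.10% passed the adjusted threshold, and 8.55% were higher and 8.48% lower by the unadjusted p. In such bulk RNA, fewer cells of a type and less RNA per cell cannot be told apart, and the part of these markers in the values of the splicing regulators was not tested.

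The promoter windows of the regulators were read as a description of what the genes share, since the array values give no common direction. RefSeq windows in GRCm38.p6, each of 300 bases, matched 32 of the 34 genes (45 windows), all but Hnrnpll and Hnrnpul2. Their median GC content was 67.3%, against 52.7% over all windows. CCAAT was found on either strand in 19 of 32 genes (59.4%), against 41.1% of all genes with a window, and in 13 of 18 hnRNP genes against 4 of 10 Srsf genes. CACGTG was found in 5 of 32 genes (15.6%) against 8.09%, namely Hnrnpa3, Hnrnpd, Hnrnpf, Hnrnph2 and Hnrnpm, and in 0 of 10 Srsf genes. These matches are letters in a window and not measured sites. The window of Hnrnpc, one of the steadiest and brightest members, is printed because it holds 4 CCAAT matches, in capitals and written as ATTGG where they lie on the opposite strand. A window each of Hnrnpa1, Hnrnpl, Hnrnpr and Hnrnpul1 also holds 4 matches, so the number is not particular to Hnrnpc. The Hnrnpc window lies on the minus strand at chr14:52103972-52104271.
Hnrnpc window: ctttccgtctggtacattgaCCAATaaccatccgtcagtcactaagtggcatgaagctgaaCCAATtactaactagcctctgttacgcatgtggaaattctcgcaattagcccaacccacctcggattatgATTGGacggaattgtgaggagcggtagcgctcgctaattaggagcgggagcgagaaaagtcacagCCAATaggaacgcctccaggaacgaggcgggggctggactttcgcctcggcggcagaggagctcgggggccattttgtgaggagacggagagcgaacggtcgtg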

How the data were processed

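RNA from whole thymus was hybridised to Illumina MouseWG-6 v2 arrays, with 3 wild type mice, 3 Tg-38 mice and 1 array for each. The authors deposited, per probe and array, the average signal of the beads as an intensity on the linear scale, not normalized. The deposited table also gives each signal a detection p-value, set by the array's negative controls. GenomeStudio is named in the submitters' processing notes, and its version is not given in the sources used here. A second deposited table holds intensity values processed by the authors by a method not stated, and was used as an alternative only.

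The neqc function (offset 16) removed background, as inferred from detection p-values, and quantile-normalized the log2 signals, with limma 3.58.1 in R 4.3.3 with statmod 1.5.0. Of 45281 probes, 18352 with a detection p-value under 0.05 on 3 or more arrays were kept. Groups were compared by lmFit and eBayes in limma, two-sided, with 4 residual and 4.93 prior degrees of freedom and Benjamini-Hochberg adjustment over all probes kept at 0.05. Fold changes are on this offset scale, which understates changes of dim probes. Pairs of probes of 1 gene were compared by fitting the difference of their log2 signals over the 6 arrays, adjusted over 8163 pairs. Gene symbols came from the platform annotation, in which 34885 probes have 1 gene, 18 several and 10378 none.

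The members and lists were chosen with earlier results of these data known. Every member gene is named, with full statistics for those with a probe at an unadjusted p under 0.05 or with disagreeing probes, and each other list adds at most 3 genes, those of smallest p. The kinase list is an exception, where Dyrk1b and Srpk1 were added as the other genes with a probe at an unadjusted p under 0.05. Hnrnpc, Srsf1, the Tra2 genes, Hnrnpll, Dyrk1b, Srpk1 and the other probes of genes from the lists were chosen for values after these were seen. The procedure was tested on simulated data. Alternatives covered the background correction, scaling, detection filter, array weights, a trend of the variance with intensity, the authors' processed values, a block for the replicate number, the methods' t-test, diffSplice, and leaving out each array. The paper names littermate controls for its PCR of miR-181d, but no source says that the array mice were littermates or handled on separate days. The p-values set the group difference against the spread between arrays within groups, moderated over all probes, for these 6 arrays. The number of arrays limits the precision. Figures were drawn with matplotlib 3.10.9.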

Additional observations from a re-analysis of the deposited data

How the results depend on the processing

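No SR or hnRNP probe passed the adjusted threshold under any alternative run, including leaving out each array (0 to 0). Scaling each array by its median in place of quantile normalization moved the median of all probes to -0.14 and that of the members to -0.18. With it, by the unadjusted p, 0 member probes were higher and 9 lower, 3 members exceeded 1.5-fold, and the other splicing lists had 1 higher and 60 lower, in place of 5 and 21. Among the probes followed for sign, named below, it also turned Hnrnpk ILMN_2784821 (-0.070), Srsf10 ILMN_2698282 (-0.024) and Srsf11 ILMN_1257639 (-0.12) below 0. Without the detection filter 5 members were lower, 10 pairs of probes differed, and 12 probes of the other lists were higher. The authors' processed values gave 5 lower, 10 pairs and 9. No background correction and normexp each gave 9 probes of the other lists higher, and an intensity trend gave 8. Array weights gave 10 pairs and, in the other lists, 8 higher and 32 lower. Pairs numbered 0 by the methods' t-test and 3 by diffSplice. Leaving out 1 array gave 1 to 2 higher and 0 to 8 lower members, 0 to 12 pairs, 3 to 8 higher and 13 to 29 lower probes in the other lists, and a members' median of -0.089 to 0.00092. Adjusted calls over all probes were 220 under median scaling, 48 without the detection filter and 445 with the authors' values, against 202. The unadjusted shares of all probes in these alternatives are not given, so the counts describe the settings and not a trait of the members. Signs were followed only for the tested probes of Srsf11, Srrm2, Srsf10, Hnrnpk and Hnrnpul2. In 6 of these probes the sign turned with the array left out. The ranges were -0.243 to 0.056 and -0.044 to 0.260 for Hnrnpk ILMN_1245987 and ILMN_2784821. For Srsf10 ILMN_2698282 and ILMN_3090825 they were -0.0051 to 0.302 and -0.106 to 0.084. For Srsf11 ILMN_1257639 and ILMN_2564210 they were -0.071 to 0.174 and -0.0045 to 0.391. In these cases the cause was not tested.

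The labels do not say that replicate numbers pair the mice, and deviations of same-numbered arrays correlated at 0.0347, -0.117 and -0.0971. With 3 arrays per group, these correlations cannot decide whether mice were paired. With the replicate block, 27 probes passed over all genes in place of 202 and 0 members, 1 member was higher and 3 were lower by the unadjusted p, 5 pairs differed, and the other lists had 3 higher and 13 lower. Rbm39, the 1 call in those lists, had an adjusted p of 0.144 with the block, 0.0596 without the detection filter and 0.121 by the methods' t-test. The widest intervals of the members were those of dim probes of Hnrnpd, Hnrnpa3 and Srsf2 (SE 0.28, 0.26 and 0.23). Brighter probes of Hnrnpll and Hnrnpa2b1 also had wide intervals (SE 0.22 each), and some dim probes had narrower ones.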
